A study of Mus musculus with 6 samples.

Results

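Genes of the autophagy and mitophagy machinery were compared between lungs of Col6a1-/- and wildtype mice. The set was a list of 46 genes, chosen by name for 8 steps of the pathway and found by symbol in a table of 49568 genes. All 46 were in the table, and all 46 passed the filter on low values that left 16879 genes for testing. RNA came from the right lung lobes of 6-week-old mice, snap-frozen after the lung vessels were perfused with saline. Strain was given as C57BL/6 for both groups, and they differed in genotype, wildtype or Col6a1-/-, a homozygous loss of a chain of collagen VI. Each of the 3 libraries per genotype pooled RNA from 2 animals, and no animal was in more than 1 pool, so that 12 animals gave 6 libraries. The sex of the animals was not given. The measure was the authors' DESeq2-normalized count per gene, the reads of a gene divided by 1 size factor per library, at 28055414 to 37904878 reads in genes per library.

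Macroautophagy encloses cytoplasm in a double membrane, the autophagosome, which then fuses with a lysosome. The ULK1 kinase complex starts the process, a lipid kinase complex around VPS34 and Beclin-1 marks the site, ATG9 and ATG2 bring membrane lipids, and a pair of ubiquitin-like conjugation systems attach LC3 and GABARAP proteins to the membrane. Cargo receptors tie ubiquitinated proteins or damaged mitochondria to these ATG8-type proteins. Loss of collagen VI is known for impaired autophagy in skeletal muscle, where low Beclin-1 and BNIP3 protein and abnormal mitochondria have been described, and the lung is compared here gene by gene. Transcript levels do not measure autophagic flux.

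The targeted gene was lower in every Col6a1-/- library. Col6a1 had 19907, 18393 and 22331 normalized counts in wildtype pools (replicates 1 to 3), against 10034, 10616 and 9344 in the Col6a1-/- pools, a log2 fold change of -1.01 (SE 0.10, limma adjusted p 0.00643), so transcripts of the gene were still present at 49.5% of wildtype. Adding the pools' male share to the limma model gave an adjusted p of 0.117, and limma's adjusted p was 0.123 without Col6a1-/- replicate 3 and 0.066 without wildtype replicate 1. Defining lung markers were high in every library: the summed level of 10 epithelial markers was 1303819 to 1547773 in wildtype and 1389107 to 1759812 in Col6a1-/- lungs, with none at 0. Red cell, fat and cardiac muscle markers had higher summed levels in the Col6a1-/- pools, with 62336 to 102820 against 41951 to 48052 for 9 red cell genes, 7905 to 12945 against 2726 to 6711 for 9 fat genes and 24596 to 26809 against 17942 to 24197 for 10 cardiac genes. The summed level of 7 endothelial markers was lower, at 111584 to 119632 against 128342 to 138059, with 6 lower estimates and 1 higher, Ednrb. All tested members of the first 3 lists had higher estimates (8 of 8, 8 of 8 and 10 of 10), and none of their markers was at 0 in any library. Limma called none of them. Of markers with an adjusted p, the authors' deposited table called 7 of 7 red cell, 2 of 7 fat and 4 of 10 cardiac markers, all higher. It also called 2 of 7 endothelial and 1 of 7 alveolar macrophage markers lower, and 1 of 7 fibroblast markers higher. The summed level of 7 alveolar macrophage markers was 13241 to 16061 in Col6a1-/- against 16527 to 18299 in wildtype pools, with 7 lower estimates. In whole tissue, fewer cells of a type and less RNA per cell cannot be told apart.

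Wildtype replicate 3 stood apart from the other wildtype libraries. Across tested genes its correlation was 0.9883 and 0.9885 with wildtype replicates 1 and 2. With Col6a1-/- replicates 1 to 3 it was 0.9927, 0.9853 and 0.9888. Wildtype replicates 1 and 2 had a correlation of 0.9929 with each other. The level of Y-linked genes, scaled to Col6a1-/- replicate 2 where Xist was near 0, gave a male share of 0.347%, 3.35% and 51.5% for the wildtype pools, against 72.5%, 100% and 51.1% for the Col6a1-/- pools. Xist did not give the same split, with 16212, 16430 and 13592 normalized counts against 12025, 28.4 and 10486, so the share ranks the pools and is no exact makeup. The sex of the pools and genotype are therefore partly confounded, and results that turn on wildtype replicate 3 are given with and without it. Without it, the remaining wildtype pools had male shares of 0.347% and 3.35%, against 51.1% to 100% in the Col6a1-/- pools. Sex and genotype cannot be told apart in that fit. Its level lay nearer to the Col6a1-/- mean than to the mean of the other wildtype libraries for 26 of the 46 autophagy genes (56.5%) and for 52.5% of all tested genes.

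None of the 46 genes passed the threshold of 0.05 for limma's Benjamini-Hochberg adjusted p over all tested genes, where 0.0652% of all tested genes did (11 of 16879; 0.0178% higher and 0.0474% lower). The smallest adjusted p was 0.0869, for the mitophagy receptor gene Bnip3. At an unadjusted p under 0.05 there were 10 members (21.7%), 5 higher and 5 lower, against 20.3% of all tested genes (9.72% higher and 10.6% lower). The authors' deposited table called 2 of the 46, Bnip3 and Bnip3l, both higher in Col6a1-/- lungs. That is 4.35%, close to the 5.05% of all genes called in the authors' deposited table (1.87% higher and 3.18% lower). Run on whole reads recovered from the deposited values, edgeR called none of the 46 and 0.077% of all tested genes, and DESeq2 on those reads called Bnip3 and Bnip3l, with 5.06% of all genes called. For 16 members the libraries were fully separated by genotype (34.8%, against 24.9% of all tested genes), 10 lower (against 14.2% of all tested genes) and 6 higher (against 10.7%). With a smooth trend on transcript length and GC content removed from each library, 6 members were separated (13.0%, against 24.3% of all genes in that setting). Without wildtype replicate 3, limma called 7 of the 46 (15.2%, against 8.26% of all genes in that fit), 6 higher and 1 lower. In that fit the sex of the pools and genotype cannot be told apart. With any other library left out, limma called none of the 46, in fits that called 0 to 47 of 16682 to 16732 tested genes. With library quality weights limma called 13 (28.3%, against 19.1% of all tested genes). The weight of wildtype replicate 3 was the lowest, 0.4044, against 1.72 and 2.499 for the other wildtype libraries. The weighted fit therefore leaned on the wildtype pools of low male share, and sex and genotype are largely confounded there too. The 7 called without wildtype replicate 3 were Rb1cc1, Atg4a, Atg10, Bnip3, Bnip3l and Lamp2, which were higher, and Rubcn, which was lower.

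The median log2 fold change of the 46 was -0.014, with 24 below 0 and 22 above, against a median of 0.0098 over all tested genes. The steps were spread around that value. The medians were -0.069 for initiation, -0.16 for nucleation, -0.21 for membrane supply, 0.14 for conjugation, 0.10 for the ATG8 family, -0.018 for cargo receptors, 0.34 for mitophagy and 0.046 for the lysosomal regulators. Estimates in the steps that start and extend the membrane lay mostly below 0, those of the ATG8 family and of mitophagy all lay above 0, and the other groups were mixed.

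**Figure D1:**
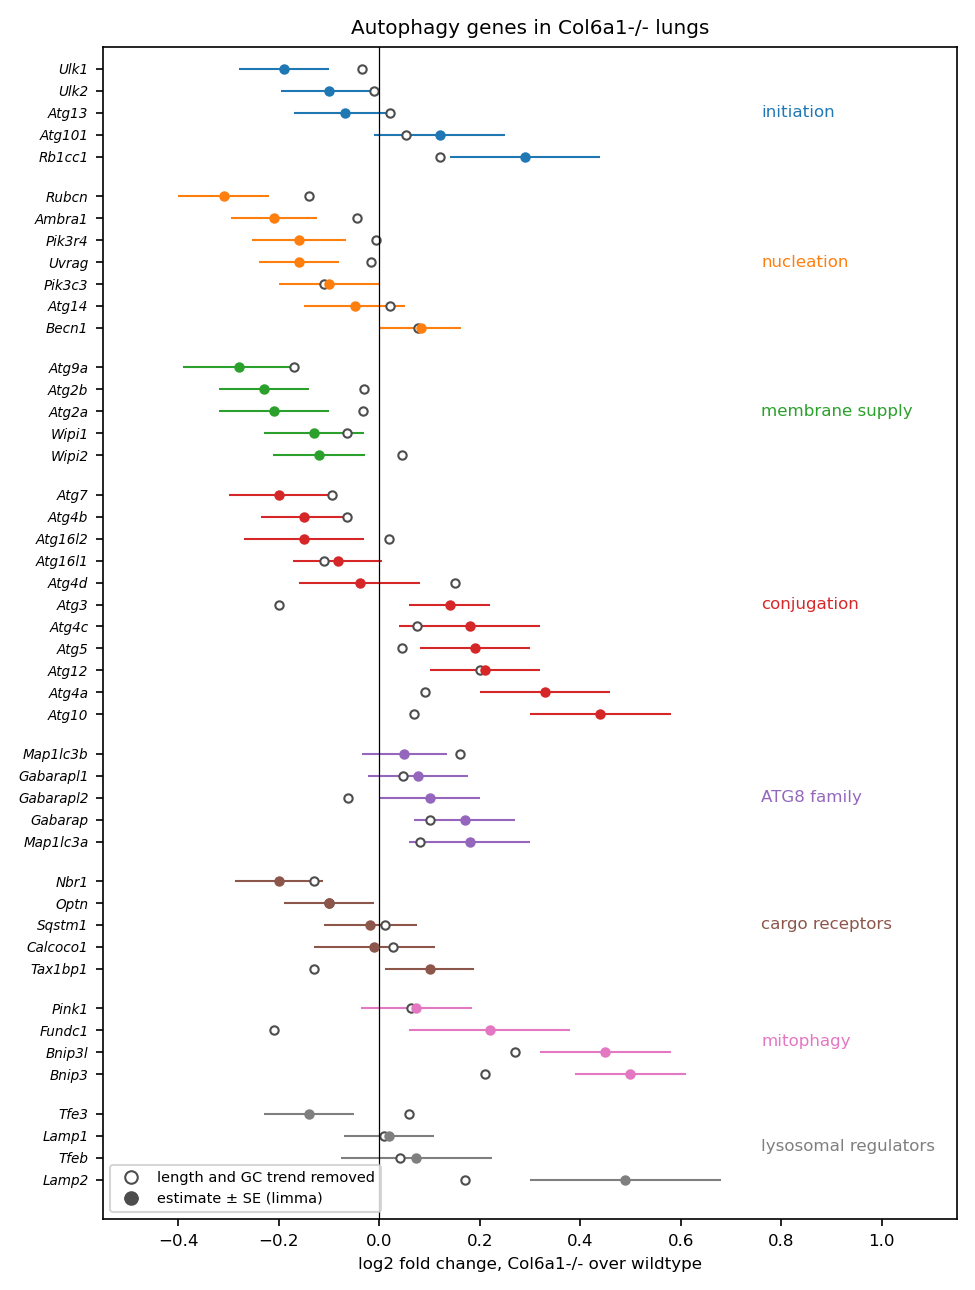
Log2 fold change of each of the 46 genes, Col6a1-/- over wildtype (x axis), by step (colour). Filled points with bars are limma estimates ± SE over 3 libraries per genotype, and open points are the estimates after removal of the length and GC trend. The estimates run from -0.31 for Rubcn to 0.50 for Bnip3, and most open points lie nearer to 0.

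Estimates were lower for genes with longer transcripts and higher GC content. Across the 46 genes Spearman's rho of the log2 fold change was -0.627 with the length of the longest transcript and -0.557 with its GC content, against -0.281 and -0.289 across 16435 tested genes of known length. These are descriptions across genes that share the same 6 libraries. Median length was 5213 bases for initiation, 4929 for nucleation and 5171 for membrane supply, against 1677 for the ATG8 family and 2179 for mitophagy. After a smooth trend on length and GC was removed from each library, the step medians were 0.022 for initiation, -0.017 for nucleation, -0.033 for membrane supply, 0.045 for conjugation, 0.08 for the ATG8 family, -0.10 for cargo receptors, 0.14 for mitophagy and 0.051 for the lysosomal regulators. Estimates of the ATG8 family were then above 0 for 4 of 5 genes and those of mitophagy for 3 of 4. The range of the 46 estimates narrowed from -0.31 to 0.50 to a range of -0.21 to 0.27, and no member was called in that fit, where the smallest adjusted p was 0.106.

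**Figure D2:**
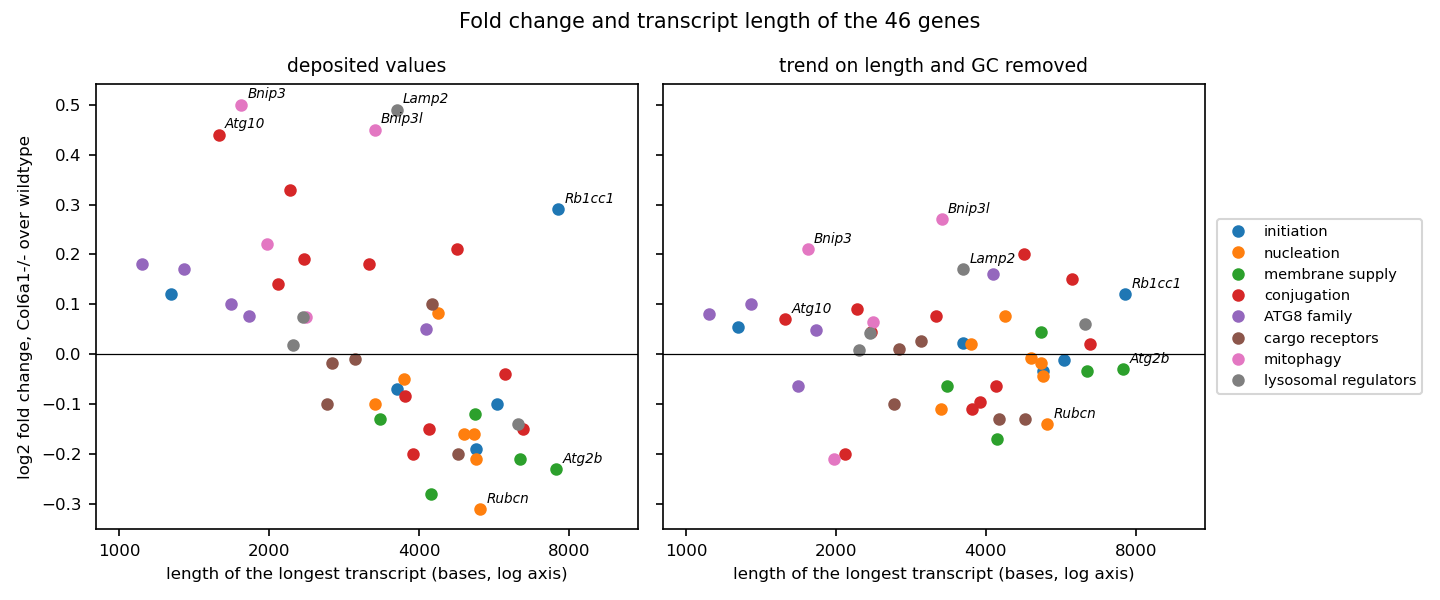
Log2 fold change of the 46 genes, Col6a1-/- over wildtype (y axis), against the length of the longest transcript in bases (log x axis), coloured by step. The left panel uses the deposited values and the right panel the values after removal of the length and GC trend; Spearman's rho with length is -0.627 on the left and -0.152 on the right.

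The ULK1 complex phosphorylates downstream autophagy proteins when nutrients are short. Ulk1, its kinase, had 2820, 2776 and 2565 normalized counts in the wildtype pools (replicates 1 to 3) against 2432, 2534 and 2207 in the Col6a1-/- pools. Every Col6a1-/- library lay below every wildtype library, at 87.9% of the wildtype mean, with a log2 fold change of -0.19 (SE 0.089, limma adjusted p 0.267). The estimate was -0.034 with the length and GC trend removed. Rb1cc1, which encodes the scaffold FIP200, went the other way, with 1879, 2066 and 2952 in wildtype lungs, against 2943, 2721 and 2610 in the mutant. Wildtype replicate 3 was the highest of all 6 libraries, so the groups overlapped (log2 fold change 0.29, SE 0.15, adjusted p 0.296). Without that library the log2 fold change of Rb1cc1 was 0.48 with an adjusted p of 0.0181. With the male share as a covariate it was -0.12, and among the 3 pools of mixed sex (wildtype replicate 3 against Col6a1-/- replicates 1 and 3) it was -0.091. With the length and GC trend removed the log2 fold change of Rb1cc1 was 0.12. Atg13, the adaptor of the complex, had 2105, 2269 and 2073 in wildtype lungs, against 1895, 2353 and 1923 in the mutant (log2 fold change -0.069, adjusted p 0.728). Ulk2 and Atg101 had log2 fold changes of -0.10 and 0.12, with overlapping libraries.

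In the nucleation step, 6 of 7 genes had lower estimates. Becn1, which encodes Beclin-1, had 3518, 3579 and 3708 normalized counts in wildtype lungs, against 3670, 3945 and 3828 in the mutant. The groups overlapped, and the mean was 106% of wildtype, 3814.2 ± 138 against 3601.8 ± 96.9 (SD, n = 3 each). Its log2 fold change of 0.082 (SE 0.080, limma adjusted p 0.579) had a 95% interval of -0.094 to 0.26, so a fall of the transcript by more than 0.094 lay outside the interval. The opposite-strand gene Cntd1, with a mean of 62 normalized counts, shares 43.9% of the exonic bases of Becn1. The counting's strand setting is not known here, so the level of Becn1 is uncertain. Opposite-strand genes also share 28.3% of the exonic bases of Gabarapl1, 22.3% of Bnip3, 17.6% of Uvrag and 17.3% of Sqstm1.

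Rubcn was the lowest of the 46 by log2 fold change. It encodes Rubicon, an inhibitor of the VPS34 complex and of autophagosome maturation. Its normalized counts were 2561, 2474 and 2252 in wildtype lungs, against 1973, 2089 and 1835 in the mutant, without overlap, and the mean was 80.9% of wildtype. The log2 fold change was -0.31 (SE 0.091, limma adjusted p 0.127; the authors' deposited table gave an adjusted p of 0.0723). Without wildtype replicate 3 the adjusted p was 0.043, and with the length and GC trend removed the log2 fold change was -0.14. Ambra1, a Beclin-1 partner, also did not overlap, with 2145, 2093 and 1900 in wildtype lungs, against 1754, 1828 and 1721 in the mutant (log2 fold change -0.21, adjusted p 0.212). Uvrag, another Beclin-1 partner, stood at 89.6% of wildtype without overlap (adjusted p 0.285). The kinase VPS34 itself, encoded by Pik3c3, its regulatory subunit Pik3r4 and Atg14, which directs the complex to the autophagosome, had log2 fold changes of -0.10, -0.16 and -0.049, with overlapping libraries.

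All 5 genes of membrane supply had lower estimates. Atg9a, the lipid scramblase that travels in vesicles to the growing membrane, had 1125, 1041 and 992 normalized counts in wildtype lungs, against 906, 952 and 745 in the mutant. The libraries did not overlap, and Col6a1-/- replicate 3 was the lowest; the mean was 82.4% of wildtype (log2 fold change -0.28, SE 0.11, limma adjusted p 0.198). Atg2b, a lipid transfer protein with one of the longest transcripts of the set (7546 bases), was close to constant in wildtype, with 1777, 1769 and 1738, and was lower in each Col6a1-/- library, with 1567, 1583 and 1365 (log2 fold change -0.23, adjusted p 0.195). With the length and GC trend removed the estimates were -0.17 for Atg9a and -0.030 for Atg2b. Wipi2, which binds the lipid made by VPS34 and recruits ATG16L1, had 2934, 3021 and 2725 in wildtype lungs, against 2568, 2939 and 2509 in the mutant, with overlap (log2 fold change -0.12, adjusted p 0.493). Atg2a and Wipi1, of the same families, stood at 86.3% and 91.5% of wildtype with overlapping libraries. Centred on the 6 libraries, the mean level of the 5 genes was 0.16, 0.11 and 0.021 on the log2 scale in the wildtype pools (replicates 1 to 3) against -0.065, 0.014 and -0.24 in the Col6a1-/- pools. The gap between wildtype replicate 3 and Col6a1-/- replicate 2 was thus small.

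**Figure D3:**
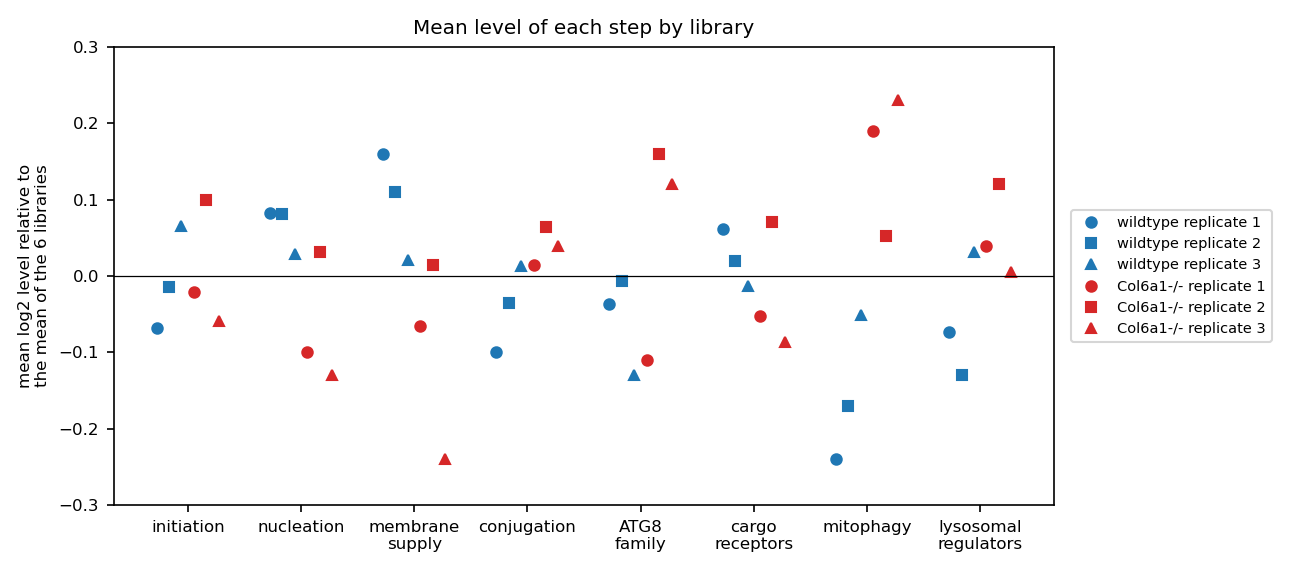
Mean log2 level of the genes of each step (y axis), relative to the mean of the 6 libraries, in each library (blue, wildtype; red, Col6a1-/-; symbol, replicate). Membrane supply runs from 0.021 to 0.16 in wildtype and from -0.24 to 0.014 in Col6a1-/- libraries, mitophagy runs from -0.24 to -0.051 in wildtype and from 0.052 to 0.23 in Col6a1-/- libraries, and the ATG8 family overlaps.

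The 11 conjugation genes divided, with 5 lower and 6 higher estimates. ATG7 is the E1-like enzyme, ATG3 and ATG10 are E2-like enzymes, ATG12, ATG5 and ATG16L1 form the E3-like complex, and ATG4 proteases process ATG8 proteins. Atg10 was the gene with the highest estimate among them, with 186, 218 and 252 normalized counts in wildtype lungs, against 270, 305 and 310 in the mutant. The groups did not overlap, and the mean was 1.35-fold the wildtype mean (log2 fold change 0.44, SE 0.14, limma adjusted p 0.145). The log2 fold change of Atg10 was 0.23 with the male share as a covariate and 0.20 among the pools of mixed sex. Atg4a, on the X chromosome, had 401, 416 and 534 in wildtype lungs, against 545, 563 and 576 in the mutant, so that wildtype replicate 3 lay just below the Col6a1-/- libraries. Its log2 fold change was 0.33 (SE 0.13, adjusted p 0.186), 0.087 with the male share as a covariate and 0.068 among the pools of mixed sex. Without wildtype replicate 3 the adjusted p was 0.0301 for Atg4a and 0.0432 for Atg10. Removal of the length and GC trend left 0.070 for Atg10 and 0.090 for Atg4a.

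Atg3 varied little within each genotype. It had 1520, 1545 and 1535 normalized counts in wildtype lungs, against 1655, 1704 and 1723 in the mutant, 110% of wildtype without overlap (log2 fold change 0.14, SE 0.080, limma adjusted p 0.335), and its estimate turned to -0.20 with the length and GC trend removed. Atg12 (115% of wildtype, adjusted p 0.284) also did not overlap, and its log2 fold change of 0.21 was 0.014 among the pools of mixed sex. Atg7 and Atg4b lay lower without overlap, at 86.9% and 90.2% of wildtype (adjusted p 0.274 and 0.356). Atg5, on the chromosome of Col6a1, stood at 114% of wildtype with overlap. Conjugation genes not yet described, Atg4c, Atg4d, Atg16l1 and Atg16l2, overlapped between genotypes and had log2 fold changes between -0.15 and 0.18. The overlap of Kri1 with 19.3% of the exonic bases of Atg4d, on the opposite strand, leaves that gene uncertain, since the counting's strand setting is not known here.

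The ATG8 family is the part of the machinery most used to follow autophagosomes, and its 5 genes all overlapped between genotypes. Per kilobase of the longest transcript, the wildtype level was highest for Gabarap, at 5150 ± 151 normalized counts per kilobase, followed by Gabarapl1 at 2810 ± 243, Map1lc3a at 2570 ± 173, Map1lc3b at 1510 ± 41.1 and Gabarapl2 at 592 ± 23.9 (SD, n = 3). On that length Gabarapl1 and Map1lc3a did not differ beyond their spread, but per kilobase of the median transcript they were at 7100 and 3460, so the choice of transcript decides the comparison. Map1lc3b, which encodes LC3B, had 6308, 6399 and 6069 normalized counts in wildtype lungs, against 6053, 6774 and 6635 in the mutant. Its log2 fold change was 0.050 (SE 0.084, limma adjusted p 0.76) with a 95% interval of -0.14 to 0.24. Gabarap had 6963, 7159 and 6750 in wildtype lungs, against 6941, 8082 and 8593 in the mutant, and Col6a1-/- replicate 1 lay within the wildtype range (log2 fold change 0.17, adjusted p 0.337). Map1lc3a had 3004, 2938 and 2643 in wildtype lungs, against 2684, 3698 and 3413 in the mutant, with the same library within the wildtype range (log2 fold change 0.18, adjusted p 0.421). Gabarapl1 and Gabarapl2 had log2 fold changes of 0.077 and 0.10. The family's mean level was -0.037, -0.0071 and -0.13 in the wildtype pools (replicates 1 to 3) against -0.11, 0.16 and 0.12 in the Col6a1-/- pools.

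Among the cargo receptor genes, Sqstm1 differed little and Nbr1 lay lower. Sqstm1 encodes p62, which binds ubiquitinated cargo and is itself degraded by autophagy. Its normalized counts were 12386, 12309 and 11627 in wildtype lungs, against 11033, 13077 and 11833 in the mutant, and both the lowest and the highest value were in Col6a1-/- libraries. The log2 fold change was -0.018 (SE 0.093, limma adjusted p 0.935, 95% interval -0.22 to 0.19). Nbr1, a p62-related receptor, had 6280, 6193 and 6023 in wildtype lungs, against 5555, 5650 and 4909 in the mutant, without overlap, with a mean of 87.1% of wildtype and a log2 fold change of -0.20 (SE 0.087, adjusted p 0.228), or -0.13 with the length and GC trend removed. Tax1bp1, a ubiquitin-binding receptor, had 6975, 6979 and 8011 in wildtype lungs, against 7807, 8147 and 7618 in the mutant, with wildtype replicate 3 among the Col6a1-/- values (log2 fold change 0.10, adjusted p 0.528). Optn, a receptor for ubiquitinated mitochondria and bacteria, stood at 93.2% of wildtype without overlap (adjusted p 0.542), and Calcoco1, a receptor for endoplasmic reticulum, at 99.1% with overlap.

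Among the mitophagy receptors, Bnip3 had the highest estimate of the 46 and Bnip3l the third, after Lamp2. BNIP3 and BNIP3L (also called NIX) sit in the outer mitochondrial membrane and bind ATG8 proteins directly; Bnip3 is a classical hypoxia-inducible gene and NIX clears mitochondria from maturing red cells. Bnip3 (chromosome 7, 138890836 to 138909519, minus strand, GRCm38) had 697, 852 and 864 normalized counts in wildtype lungs, against 1123, 1105 and 1170 in the mutant. The groups were well separated, with means of 804 ± 93.1 and 1132.6 ± 33.2 (SD, n = 3 each), a 1.41-fold difference. Its log2 fold change was 0.50 (SE 0.11, 95% interval 0.27 to 0.73), with a limma adjusted p of 0.0869 and, in the authors' deposited table, an adjusted p of 0.00589 at a log2 fold change of 0.44. Bnip3l (chromosome 14, 66985239 to 67008877, minus strand) had 3182, 2954 and 4056 in wildtype lungs, against 4735, 4123 and 4989 in the mutant. Wildtype replicate 3 was just under Col6a1-/- replicate 2, and the means of 3397.2 ± 581 and 4615.7 ± 445 differed 1.36-fold (log2 fold change 0.45, SE 0.13, limma adjusted p 0.114). In the authors' deposited table Bnip3l had a log2 fold change of 0.38 and an adjusted p of 0.0297. A pseudogene, Bnip3l-ps, had a mean of 8.23 normalized counts.

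These estimates kept their sign in each fit that left out a library, from 0.40 to 0.55 for Bnip3 and from 0.36 to 0.59 for Bnip3l. Without wildtype replicate 3 both passed, with limma adjusted p of 0.0187 and 0.0124. With any other library left out neither passed, in fits that called 0 to 47 of 16682 to 16732 tested genes. There limma's adjusted p reached 0.351 for Bnip3 and 0.381 for Bnip3l. Among the pools of mixed sex the log2 fold changes were 0.41 and 0.26, and with the male share as a covariate they were 0.42 and 0.33 (adjusted p 0.639 and 0.702). With the length and GC trend removed they were 0.21 and 0.27 (adjusted p 0.249 and 0.106), so that this setting lowered Bnip3 by more than 1.5 times. The red cell marker genes were higher in the same libraries. Beta globin, Hbb-bs, had 22097, 21278 and 22143 normalized counts in wildtype lungs, against 43896, 30384 and 53958 in the mutant (limma adjusted p 0.0781). Its Col6a1-/- libraries had the same order as those of Bnip3l. Among the wildtype libraries Hbb-bs hardly differed. There Hbb-bt, Hba-a1, Hba-a2 and Alas2 were highest in replicate 1, while Bnip3l was highest in replicate 3. The part of red cell, fat or cardiac RNA in the values of Bnip3 and Bnip3l was not tested.

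**Figure D4:**
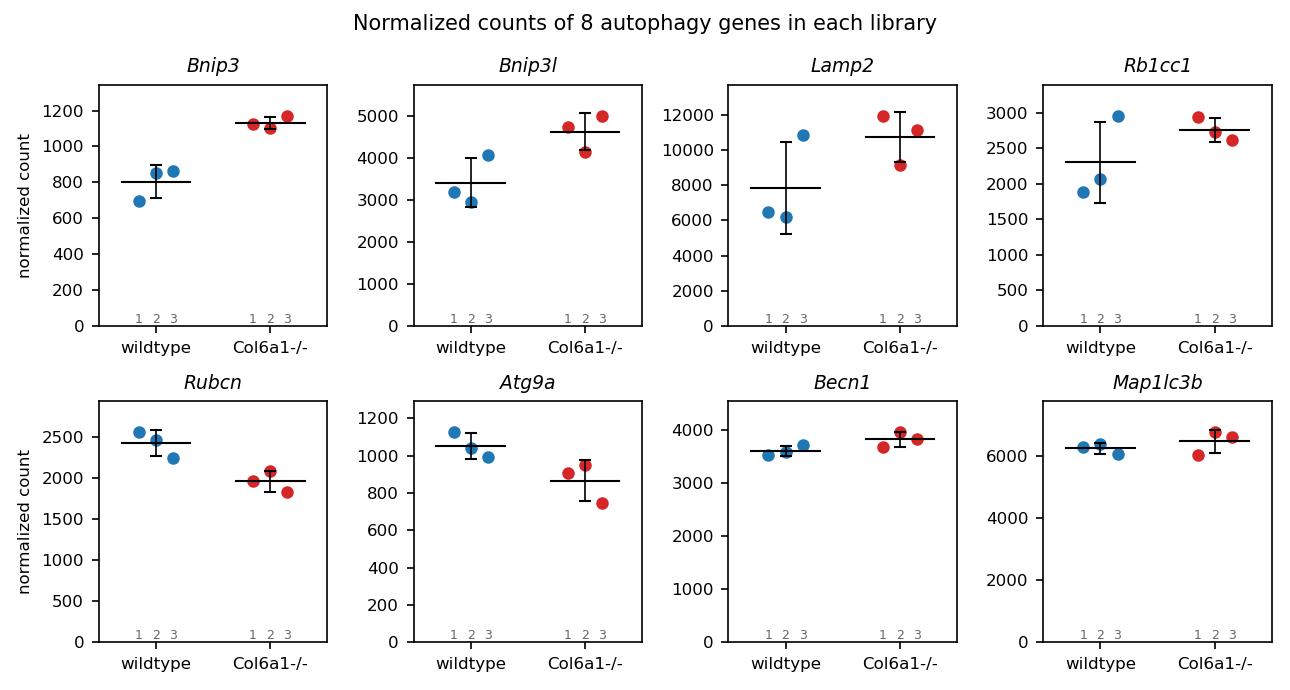
Normalized counts (y axis, from 0) of 8 genes in each library; points are libraries numbered by replicate, lines are means and bars SD over 3 libraries. Bnip3, Bnip3l, Rubcn and Atg9a do not overlap between genotypes, while Lamp2, Rb1cc1, Becn1 and Map1lc3b do, Lamp2 and Rb1cc1 through wildtype replicate 3.

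The other mitophagy genes, Pink1 and Fundc1, had estimates above 0 with libraries that overlapped between genotypes. Pink1, the kinase that marks depolarised mitochondria, had 5896, 5773 and 5047 normalized counts in wildtype lungs, against 5105, 6624 and 5919 in the mutant, with wide overlap (log2 fold change 0.074, SE 0.11, limma adjusted p 0.732). Fundc1, an outer membrane receptor on the X chromosome, had 829, 900 and 1041 in wildtype lungs, against 1310, 811 and 1161 in the mutant. The lowest and the highest library were both Col6a1-/- (log2 fold change 0.22, SE 0.16, adjusted p 0.464). The log2 fold change of Fundc1 was 0.31 with the male share as a covariate and 0.24 among the pools of mixed sex. Its sign turned with the length and GC trend removed, to -0.21. No test of a difference between these genes and Bnip3 was made.

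Among the lysosomal regulators, Lamp2 had the widest spread between libraries. TFEB and TFE3 are transcription factors that switch on lysosomal and autophagy genes, and LAMP1 and LAMP2 are the main glycoproteins of the lysosomal membrane. Lamp1 had the highest level of the set per kilobase, 11300 ± 198 normalized counts per kilobase in wildtype. Its normalized counts were 24725, 25192 and 25609 in wildtype lungs, against 24596, 26321 and 25608 in the mutant (log2 fold change 0.019, SE 0.090, 95% interval -0.18 to 0.22, limma adjusted p 0.93). Lamp2, needed for fusion and for chaperone-mediated autophagy, had 6462, 6198 and 10866 in wildtype lungs, against 11941, 9151 and 11142 in the mutant. Wildtype replicates 1 and 2 were low, and wildtype replicate 3 lay among the Col6a1-/- libraries (log2 fold change 0.49, SE 0.19, adjusted p 0.192). Without wildtype replicate 3 the log2 fold change of Lamp2 was 0.75 with an adjusted p of 0.00881, while among the pools of mixed sex it was 0.086 and with the male share as a covariate 0.13. With the length and GC trend removed it was 0.17. Lamp2 is on the X chromosome; the sex of the pools and other differences of wildtype replicate 3 cannot be told apart. Tfe3, also X-linked, had 2188, 2124 and 1960 in wildtype lungs, against 1930, 2012 and 1768 in the mutant, with overlap (log2 fold change -0.14, adjusted p 0.415). Tfeb had a log2 fold change of 0.074 with Col6a1-/- replicate 2 the highest library.

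Promoter windows are shown for Bnip3, the gene with the highest estimate, and for Lamp1 and Atg3, which hold more than 1 copy of CACGTG, the E-box core that TFEB and TFE3 recognise. The windows are from RefSeq on GRCm38.p6 and run from 250 bases before to 50 after a start site, 5′ to 3′ on the gene's strand, with CACGTG in capitals. They are chr7:138909457-138909756 (minus strand) for Bnip3, chr8:13158911-13159210 (plus strand) for Lamp1 and chr16:45158579-45158878 (plus strand) for Atg3.
Bnip3: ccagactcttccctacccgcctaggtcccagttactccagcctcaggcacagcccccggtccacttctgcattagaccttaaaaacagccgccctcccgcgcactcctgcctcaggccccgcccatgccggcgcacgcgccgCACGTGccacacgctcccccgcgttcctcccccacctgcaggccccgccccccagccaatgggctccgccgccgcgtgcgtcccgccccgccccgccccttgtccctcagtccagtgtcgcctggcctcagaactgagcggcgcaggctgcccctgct
Lamp1: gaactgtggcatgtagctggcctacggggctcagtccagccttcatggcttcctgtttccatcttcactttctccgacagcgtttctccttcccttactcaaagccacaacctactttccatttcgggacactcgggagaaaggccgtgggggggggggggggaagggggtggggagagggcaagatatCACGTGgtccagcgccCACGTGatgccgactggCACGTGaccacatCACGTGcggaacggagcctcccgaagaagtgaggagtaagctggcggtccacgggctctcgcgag
Atg3: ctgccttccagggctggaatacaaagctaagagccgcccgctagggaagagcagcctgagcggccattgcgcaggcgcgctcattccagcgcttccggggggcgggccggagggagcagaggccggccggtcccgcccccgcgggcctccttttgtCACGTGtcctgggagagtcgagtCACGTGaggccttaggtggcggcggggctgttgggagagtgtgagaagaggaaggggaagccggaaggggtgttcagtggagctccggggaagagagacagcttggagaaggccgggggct

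The Lamp1 window held 4 copies of CACGTG, that of Atg3 held 2 and that of Bnip3 held 1. The motif reads the same on both strands and contains ACGTG, the core of hypoxia response elements, on each. CACGTG was in a window of 7 of the 39 members with one (17.9%) and in 10.9% of 12055 tested genes with one, and ACGTG on either strand was in 46.2% and 27.5%. The longer match TCACGTGA, the centre of the CLEAR element, was in 2.56% of members (Atg3) and 1.92% of tested genes. Of the 3 genes shown, Lamp1 with 4 copies had a log2 fold change of 0.019, Atg3 with 2 had 0.14 and Bnip3 with 1 had 0.50. The other members with CACGTG, Atg5, Atg14, Atg7 and Rubcn, also had 1 copy in a window. Their log2 fold changes were 0.19, -0.049, -0.20 and -0.31. A relation between copies and fold change was not tested. A match of letters is a description of the window and not of a bound site.

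Other genes of the pathway, 115 listed names of which 114 were in the table and tested, had a median log2 fold change of -0.040, with 66 lower and 48 higher estimates. None passed limma's adjusted threshold, and 25 (21.9%) had an unadjusted p under 0.05, near the 20.3% of all tested genes. Of these, 17 were lower (14.9%, against 10.6%) and 8 higher (7.02%, against 9.72%). The authors' deposited table gave 112 of them an adjusted p and called 5, all lower: Foxo3, Ncoa4, Bcl2l1, Epg5 and Cbl. That is 4.46%, near the 5.05% of all genes called in the authors' deposited table, of which 3.18% were lower, so the 5 are described as single genes and the count says nothing particular of the list. Foxo3, a transcription factor of autophagy and stress genes, had 5643, 6050 and 6042 normalized counts in wildtype lungs, against 4532, 4093 and 4078 in the mutant, without overlap (log2 fold change -0.48, SE 0.085, limma adjusted p 0.0693; adjusted p 0.000361 in the authors' deposited table). With the length and GC trend removed the log2 fold change of Foxo3 was -0.27. Ncoa4, the receptor that carries ferritin to lysosomes, had 889, 869 and 797 in wildtype lungs, against 654, 595 and 578 in the mutant (log2 fold change -0.48, adjusted p 0.0833), and it stayed at -0.47 with the length and GC trend removed. Bcl2l1, whose product BCL-XL binds Beclin-1, had a log2 fold change of -0.34, or -0.32 without the trend. Epg5, which tethers autophagosomes to lysosomes, and Cbl, a ubiquitin ligase, had -0.43 and -0.37, and -0.20 each without the trend. By list, the medians were -0.0032 for 24 upstream kinases and their regulators, -0.077 for 13 fusion genes (11 lower), 0.028 for 16 further core genes, -0.038 for 12 further cargo receptors, 0.0047 for 15 other mitophagy genes, -0.13 for 8 further transcription factors and -0.038 for 26 lysosomal enzymes and pump subunits.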

How the data were processed

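RNA sequencing of 6 pooled lung libraries was used. In the submitters' processing notes, these tools appear without role or order: Trimmomatic 0.36, STAR 2.5.2b, Subread 1.5.0p3, featureCounts, R 3.4.1, DESeq2 1.16.1 and, as genome, GRCm38.p5. Annotation release, strand setting and design formula: not given in the sources used here. By its name, the deposited table holds DESeq2-normalized counts (signal values), and these behave as gene counts divided by a size factor per library; the header of wildtype replicate 2 also carries the word "New". In each library 100% of values (within 1e-06) were whole multiples of 1 step, the value of 1 read, with size factors of 0.911 to 1.25, except that the step of Col6a1-/- replicate 3 was too close to 1 to test this. The authors' deposited comparison gives a mean and a test statistic (each a score), a log2 fold change, a p-value and an adjusted p-value.

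The main test was limma-trend (version 3.58.1 under R 4.3.3), two-sided and without covariates, applied to log2 of normalized count plus 1. Genes needed 10 or more in 3 or more libraries, and p-values were Benjamini-Hochberg adjusted over the whole tested table, threshold 0.05. Log2 fold changes understate low genes; percentages and folds are ratios of mean normalized counts. p-values measure the spread between pools of animals. The limma fit was checked on simulated counts with larger changes than those of the members. The simulation had no sex difference between pools and no length and GC trend, so it does not cover the small differences seen here. Other tests, run on recovered reads, were edgeR 4.0.16 and DESeq2 1.42.0. Transcript length and GC came from the longest GENCODE transcript on GRCm38 (97.37% of tested genes), and the trend on them was removed with natural splines of 5 degrees of freedom. Male share was the mean ratio of Ddx3y, Eif2s3y, Kdm5d and Uty to Col6a1-/- replicate 2.

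Values per library are given for members called by limma or the authors, the 2 of each step with the smallest p, that with the highest wildtype level per length, Becn1, Bnip3, Map1lc3b, Sqstm1 and X-linked members. Members, lists and rules were chosen with earlier results of these data known. Marker lists of alveolar macrophages, fibroblasts and skeletal muscle had median log2 fold changes of -0.20, -0.11 and 0.17. The replicate numbers were checked and do not pair the samples.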

Additional observations from a re-analysis of the deposited data

How the results depend on the processing

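Among the alternatives run, DESeq2 on recovered reads called 2 members, with 5.06% of all genes called. Library quality weights gave 13 (28.3%, against 19.1% of all tested genes). Without wildtype replicate 3 there were 7 (15.2%, against 8.26%). At a threshold of 0.1 there was 1, Bnip3, and the share of all genes at that threshold was not counted. No other alternative called a member, and leaving out each library in turn gave 0 to 7. The median log2 fold change of the members ranged from -0.093 to 0.042 with a library left out. With the length and GC trend removed, step medians were -0.017 for nucleation, -0.033 for membrane supply, 0.045 for conjugation, -0.10 for cargo receptors and 0.14 for mitophagy, and 6 members were without overlap (13.0%, against 24.3% of all genes in that setting). With the male share as a covariate they were -0.17 for initiation, 0.011 for conjugation and -0.061 for lysosomal regulators. Among pools of mixed sex, where the single wildtype library is assumed to vary like the others, they were 0.014 and -0.019 for the last 2, and median centring gave 0.11 for conjugation. Quality weights gave -0.10 for cargo receptors, 0.43 for mitophagy and 0.0013 for lysosomal regulators. With a library left out they ran from 0.060 to 0.14 for conjugation, -0.10 to 0.027 for cargo receptors, 0.27 to 0.47 for mitophagy and -0.058 to 0.11 for lysosomal regulators, and 16 to 27 members were without overlap (34.8% to 58.7%, against 29.6% to 46.4% of all genes), since fewer libraries separate more easily. Col6a1 had -1.24 with the male share (adjusted p 0.117) and -1.08 to -0.94 with a library left out, where limma's adjusted p was 0.123 without Col6a1-/- replicate 3 and 0.066 without wildtype replicate 1. Estimates changed sign with the trend removed for 12 of the 46 members; among those with values per library these were Atg13 (0.022), Wipi2 (0.045), Atg3 (-0.20), Sqstm1 (0.011), Tax1bp1 (-0.13), Fundc1 (-0.21) and Tfe3 (0.060), and the others were Atg14, Atg4d, Atg16l2, Gabarapl2 and Calcoco1. They changed with the male share for 7 members, Atg4c, Atg4d, Calcoco1 and Tfeb besides Rb1cc1 (-0.12), Tax1bp1 (-0.073) and Lamp1 (-0.029), among pools of mixed sex for the same 7, with Rb1cc1 (-0.091), Tax1bp1 (-0.055) and Lamp1 (-0.029), with median centring for Lamp1 (-0.020) and with quantile normalization for Sqstm1 (0.034) and Calcoco1. Tfeb changed with quality weights. With a library left out Atg4d, Calcoco1 and Tfeb also changed sign, and the ranges were -0.083 to 0.040 for Sqstm1, -0.016 to 0.17 for Pink1 and -0.0043 to 0.045 for Lamp1. Per kilobase of the median transcript, wildtype levels were 8270 for Gabarap, 7100 for Gabarapl1, 3460 for Map1lc3a, 2470 for Map1lc3b and 1330 for Gabarapl2, in the same order. The cause of these shifts was not tested. With the replicate number as a block (replicate block), 0 members and 7 genes in all were called; same-numbered samples had correlations of -0.136, 0.106 and -0.00588 in their deviations, so they share only a number. Over all genes limma called 11, against 7 with a filter of 50, 81 with the trend removed, 26 with median centring, 93 with no filter, 0 with the male share, 341 among pools of mixed sex and 0 to 1383 with a library left out. With 3 pools per genotype, small differences could not be separated from the spread.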
